A study of Mus musculus with 12 samples.

Results

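The enzymes described here carry long-chain fatty acids into mitochondria and break them down there. They were taken from a list of 10 gene symbols, Cpt1a, Cpt1b, Cpt2, Acadvl, Acadl, Acadm, Hadha, Hadhb, Acaa2 and Etfdh, and looked up among the 18194 genes that have a probe set of their own on the array. A probe set is the group of short probes that gives 1 value for a transcript. Of the 10, 9 had a probe set naming only that gene. Cpt1b, the carnitine palmitoyltransferase of muscle and brown fat, is named by 1 probe set, which also names 2 other genes, so no value is given for it.

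Long-chain fatty acids enter the mitochondrion as carnitine esters. Cpt1 enzymes make the ester at the outer membrane, where malonyl-CoA inhibits them, and Cpt2 turns it back into acyl-CoA inside. Each round of beta-oxidation then has a dehydrogenation, a hydration, a second dehydrogenation and a thiolytic cleavage, and it shortens the chain by an acetyl-CoA unit. The electrons of the first step pass through the electron transfer flavoprotein and its dehydrogenase Etfdh to ubiquinone. Brown fat and muscle use the pathway to make heat or work, whereas white fat mainly stores fatty acids.

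Total RNA was hybridised to 12 Affymetrix arrays. There were 6 groups, and each had 2 arrays, lettered a and b. Smad3-/- mice, on a mix of C57BL/6 and NIH Black Swiss, were given regular diet (KO_RD) or high fat diet with 55% fat (KO_HFD). Their controls were wild-type C57BL/6 mice on the same diets (WT_RD and WT_HFD). In a separate experiment, diet-induced obese mice of the strain labelled C57J/B6 received an anti-TGF-beta antibody, 1D11 (ATGF), or IgG, 13C4. Both were given intraperitoneally over 8 weeks with 3 doses weekly, and the labels of both groups give a diet with 55% fat. Smad3 carries TGF-beta signals to the nucleus. Genotype and strain background cannot be told apart, and the labels give neither tissue, age nor sex, nor do they say whether a and b came from different animals. The p-values therefore measure only how far these arrays spread, and that spread may be technical.

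The values are log2 RMA expression values, and a difference of 1 is 2-fold. Replicate arrays correlated at r = 0.992 to 0.996. Array medians were 6.32 to 6.39 in the diet and genotype experiment and 6.03 to 6.04 in the antibody experiment, with SDs of 1.64 to 1.74 and of 2.15 to 2.17, so levels are compared only within an experiment. Values of the 9 genes lay between 8.00 and 12.65, above the medians. Adipoq, the adiponectin gene of fat cells, was at 13.01 to 14.18 on all 12 arrays. The 3 probe sets of Smad3 did not differ between Smad3-/- and wild-type arrays on either diet (limma adjusted p = 0.0849 to 0.965), and no source used here places them relative to the disrupted part. Differences between the 3' and 5' ends of Gapdh, which grow as RNA degrades, were 0.28 and 0.41 in KO_RD against 0.12 and 0.14 in WT_RD, 0.39 and 0.37 in KO_HFD against 0.36 and 0.50 in WT_HFD, and 0.08 and 0.14 in ATGF against 0.02 and 0.10 in IgG. For actin they were 0.96 and 1.12 in KO_RD against 0.80 and 0.77 in WT_RD, 0.90 and 0.99 in KO_HFD against 0.99 and 0.96 in WT_HFD, and 0.87 and 0.75 in ATGF against 0.61 and 0.67 in IgG. The groups did not overlap for either gene on regular diet, nor for actin with the antibody. WT_HFD and WT_RD also did not overlap for either gene. The part of RNA quality in the enzymes' differences was not tested.

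Transcripts of most of the oxidation enzymes were more abundant in Smad3-/- samples than in wild type on both diets. They were also more abundant in antibody-treated obese mice than in IgG-treated ones. Only RNA was measured. On regular diet 6 of 9 genes rose and 0 fell in KO_RD, and the median difference was 0.97. Across all genes 8.40% rose and 15.6% fell there, with a median of 0.04. On high fat diet 8 of 9 rose and 0 fell in KO_HFD (median 1.53), against 4.74% higher and 6.05% lower over all genes (median -0.01). With the antibody 8 rose and 1 fell (median 0.70), against 11.7% higher and 12.6% lower (median 0.00). A gene counts as higher or lower where limma's test gave a Benjamini-Hochberg adjusted p under 0.05 over all genes. These 3 comparisons share no arrays, and Acadvl, Acadl, Hadha, Hadhb, Acaa2 and Etfdh rose in all of them. The 3 tests of a gene do share 1 estimate of its spread. The genes were also chosen with earlier results of these data known. Cpt1a stood apart from the others: it fell with the antibody and did not pass for genotype on either diet. Quantile normalization applied again to all 12 arrays raised the count on regular diet to 9 of 9 genes higher, while the split over all genes became 2438 higher and 2572 lower, against 1528 and 2833 as deposited.

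**Figure D1:**
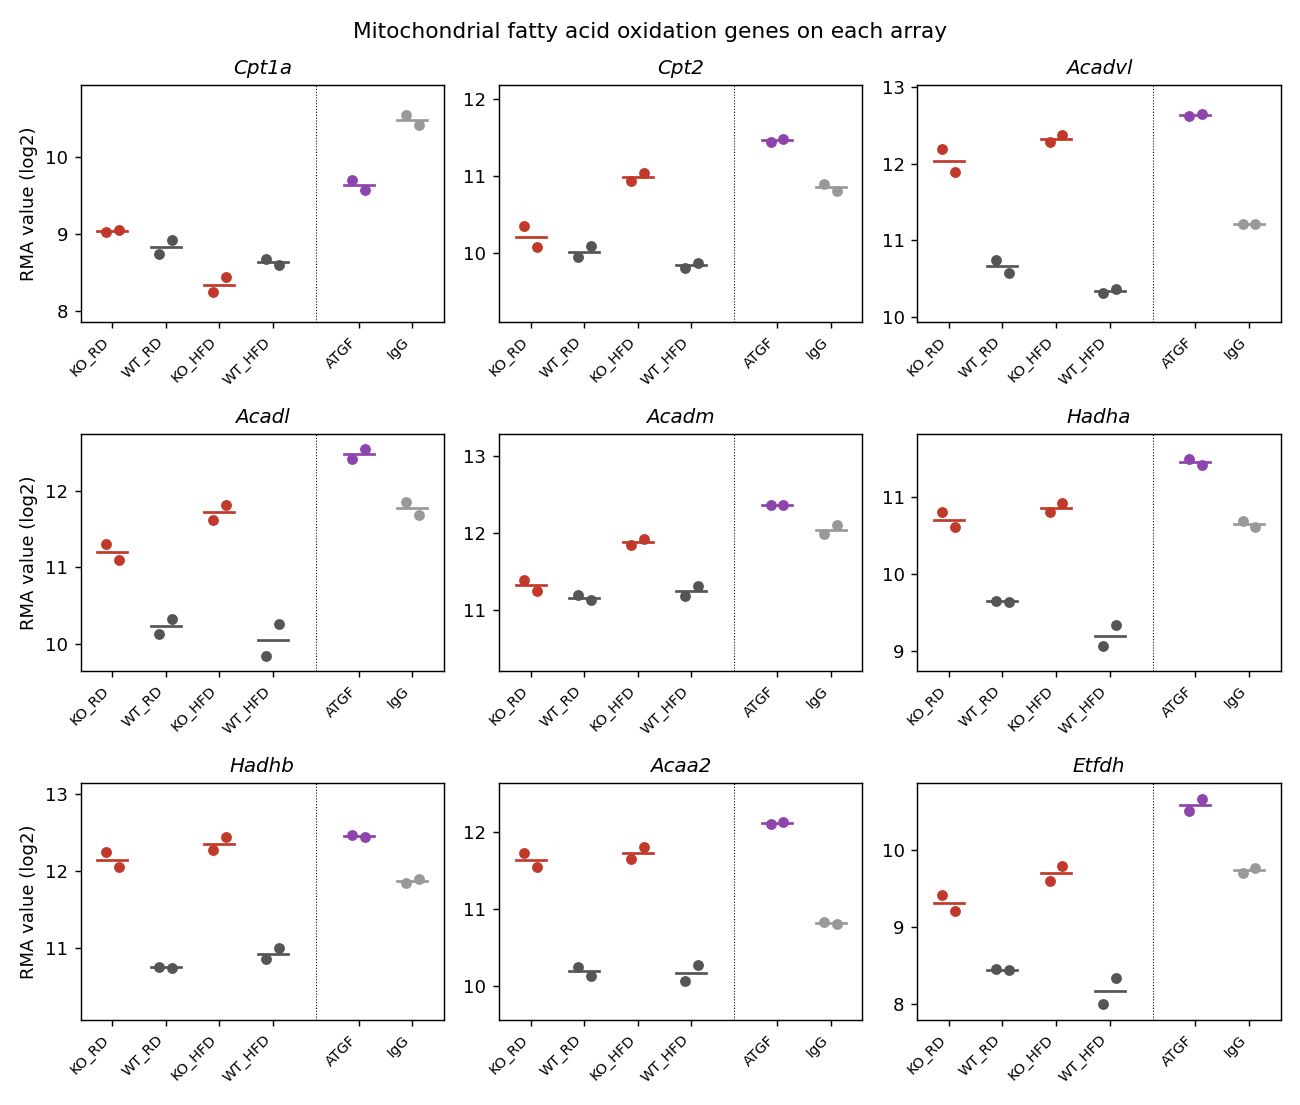
Each panel plots 1 gene. The points are the 2 arrays of a group (RMA value, log2, with the same span in every panel), the bars are group means, and the dotted line parts the diet and genotype experiment from the antibody experiment. Acadvl, Hadha, Hadhb, Acaa2, Acadl and Etfdh are higher on every KO_RD, KO_HFD and ATGF array than on the arrays of WT_RD, WT_HFD and IgG beside them, and Cpt1a runs the other way in the antibody experiment.

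The carnitine enzymes Cpt1a and Cpt2 went opposite ways with the antibody and were nearly alike on regular diet. Cpt1a, the carnitine palmitoyltransferase of liver and many other tissues, stood at 9.03 and 9.05 in KO_RD against 8.74 and 8.92 in WT_RD. On high fat diet it stood at 8.24 and 8.44 in KO_HFD against 8.67 and 8.60 in WT_HFD. The groups did not overlap on either diet, but the differences of 0.21 ± 0.109 and -0.30 ± 0.109 (SE) did not pass (limma adjusted p = 0.175 and 0.0873). Groups of 2 arrays can fail to overlap by chance, so lack of overlap here and below is only a description. In the antibody experiment Cpt1a read 9.70 and 9.57 in ATGF, against 10.55 and 10.42 in IgG. Both antibody arrays lay below both IgG arrays, a difference of -0.85 ± 0.109 or 1.81-fold lower with the antibody (limma adjusted p = 6.28e-07). Cpt2, the inner-membrane enzyme, had 10.35 and 10.07 in KO_RD against 9.94 and 10.09 in WT_RD. Those groups overlapped, and the difference of 0.20 ± 0.106 did not pass (limma adjusted p = 0.187, but 0.0317 without KO_RD replicate b). On high fat diet Cpt2 was at 10.93 and 11.04 in KO_HFD, against 9.80 and 9.87 in WT_HFD. Here the groups were far apart, with a difference of 1.15 ± 0.106 (2.22-fold, limma adjusted p = 3.96e-09). With the antibody Cpt2 was at 11.45 and 11.48 against 10.90 and 10.81 with IgG, higher by 0.61 ± 0.106.

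The acyl-CoA dehydrogenases, which make the first double bond, include Acadvl, Acadl and Acadm, and Acadvl differed most and Acadm least of these 3 in each of the 3 comparisons. The difference did not follow chain length beyond them: Acads, for short chains, was named after its values were seen and differed by 0.29 (not passed), 1.03 and 0.55, each above Acadm. Acadvl, for very long chains, was at 12.19 and 11.89 in KO_RD against 10.74 and 10.58 in WT_RD, a difference of 1.38 ± 0.105 or 2.6-fold. On high fat diet it was at 12.28 and 12.37 in KO_HFD against 10.31 and 10.36 in WT_HFD, 1.99 ± 0.105 or 3.97-fold. With the antibody it was at 12.62 and 12.65 against 11.22 and 11.22 with IgG, 1.42 ± 0.105 or 2.67-fold. Each KO_RD, KO_HFD and ATGF array of Acadvl exceeded its controls by more than 1 log2 unit, and its limma adjusted p was at most 2.64e-11 in these comparisons. Acadl, for long chains, had 11.30 and 11.10 in KO_RD against 10.13 and 10.33 in WT_RD. It had 11.62 and 11.82 in KO_HFD against 9.85 and 10.26 in WT_HFD, where the WT_HFD arrays differed from each other more than in any other group. It had 12.41 and 12.54 in ATGF against 11.86 and 11.68 in IgG. The groups did not overlap in any of the 3, and the differences were 0.97, 1.67 and 0.70 (SE 0.123 each, limma adjusted p at most 6.74e-05). Acadm, for medium chains, changed least of the 3 dehydrogenases. It stood at 11.39 and 11.24 in KO_RD against 11.19 and 11.12 in WT_RD, a difference of 0.16 ± 0.0994 that did not pass (limma adjusted p = 0.267, 95% interval -0.04 to 0.37). It stood at 11.84 and 11.92 in KO_HFD against 11.18 and 11.31 in WT_HFD, higher by 0.63 ± 0.0994 (limma adjusted p = 3.27e-05). It stood at 12.36 and 12.37 in ATGF against 11.99 and 12.10 in IgG. That difference of 0.32 ± 0.0994 passed (limma adjusted p = 0.0181), but not without IgG replicate a, ATGF replicate a or ATGF replicate b (limma adjusted p = 0.171, 0.0969 and 0.112). The order of the 3 dehydrogenases is a description, since differences between genes were not tested.

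The Acadvl promoter window is shown because the gene had the highest genotype difference on high fat diet of the 9 genes. The gene lies at chr11:70010183-70015428 of GRCm38.p6 on the minus strand, and the 250 bases before it, chr11:70015429-70015678, hold the nuclear receptor half-site AGGTCA in gene orientation from base -87, in capitals. Acadm, which changed least of the 3 dehydrogenases described here, is set beside it. Its gene is at chr3:153922353-153944643 on the minus strand, and chr3:153944644-153944893 before it has AGGTCA on the opposite strand from base -249 and GCATGCGC, part of the element bound by the transcription factor NRF1, from base -158.
Acadvl: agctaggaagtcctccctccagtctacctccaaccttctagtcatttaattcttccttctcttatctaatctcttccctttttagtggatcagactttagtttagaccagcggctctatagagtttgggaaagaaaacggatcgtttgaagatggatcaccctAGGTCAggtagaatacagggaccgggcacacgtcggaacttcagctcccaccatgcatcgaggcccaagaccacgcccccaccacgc
Acadm: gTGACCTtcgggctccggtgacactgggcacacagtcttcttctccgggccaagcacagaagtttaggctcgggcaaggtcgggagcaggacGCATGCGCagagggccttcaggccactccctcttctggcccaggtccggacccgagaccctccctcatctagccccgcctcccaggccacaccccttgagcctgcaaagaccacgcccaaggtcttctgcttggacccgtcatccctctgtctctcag

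**Figure D2:**
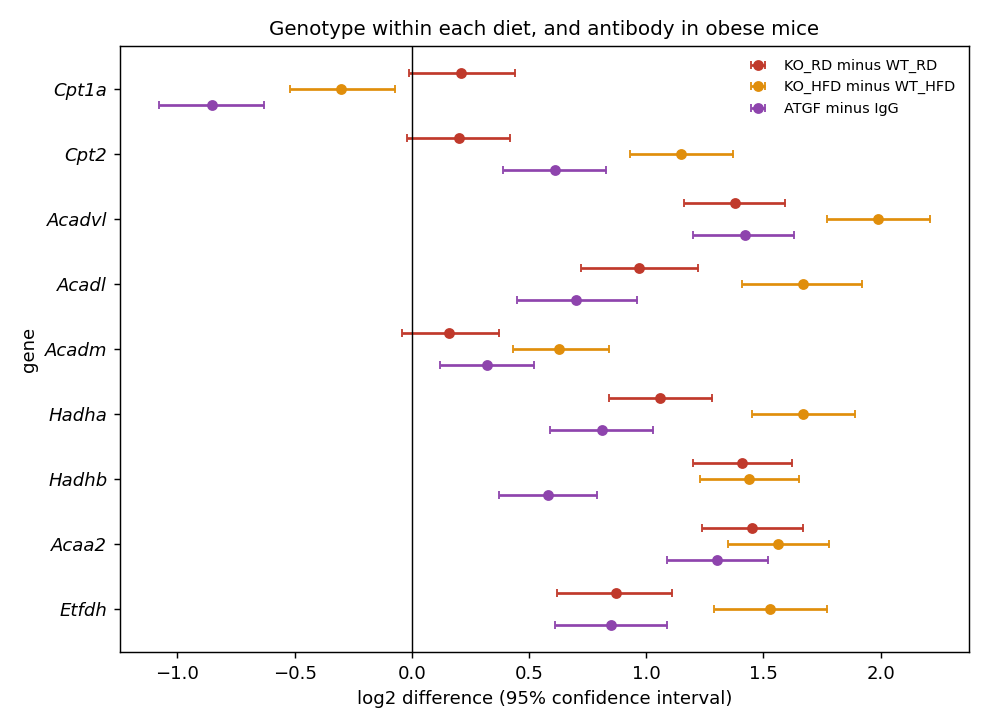
Log2 differences of the 9 genes with 95% confidence intervals from limma, for KO_RD minus WT_RD, KO_HFD minus WT_HFD and ATGF minus IgG (2 arrays a side). Acadvl, Acadl, Hadha, Hadhb, Acaa2 and Etfdh lie to the right of 0 in all 3 comparisons, and Cpt1a falls to -0.85 with the antibody.

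Hydration, the second dehydrogenation and cleavage of long chains are done by the mitochondrial trifunctional protein, with Hadha encoding its alpha and Hadhb its beta subunit. Hadha was at 10.81 and 10.61 in KO_RD against 9.65 and 9.64 in WT_RD, a difference of 1.06 ± 0.107 or 2.09-fold. It was at 10.81 and 10.92 in KO_HFD against 9.06 and 9.33 in WT_HFD, 1.67 ± 0.107 or 3.19-fold. With the antibody it was at 11.50 and 11.42 against 10.69 and 10.61 with IgG, 0.81 ± 0.107 or 1.75-fold. The groups of Hadha were separate each time (limma adjusted p at most 1.25e-06). Hadhb reached 12.25 and 12.05 in KO_RD against 10.75 and 10.74 in WT_RD. It reached 12.28 and 12.44 in KO_HFD against 10.85 and 10.99 in WT_HFD. Its differences of 1.41 ± 0.102 and 1.44 ± 0.102 were thus nearly alike on both diets (2.65-fold and 2.71-fold). With the antibody Hadhb was at 12.47 and 12.45 against 11.85 and 11.90 with IgG, and the difference of 0.58 ± 0.102 was smaller (1.5-fold, limma adjusted p = 7.47e-05). Acaa2, the thiolase that cleaves shorter chains, had 11.73 and 11.55 in KO_RD against 10.24 and 10.13 in WT_RD. It had 11.65 and 11.81 in KO_HFD against 10.06 and 10.27 in WT_HFD, and 12.11 and 12.14 in ATGF against 10.83 and 10.81 in IgG. Acaa2 differed by 1.45, 1.56 and 1.30 (SE 0.104 each, 2.74-fold, 2.96-fold and 2.47-fold), a narrower span over the 3 comparisons than for Acadl or Hadha.

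Hadha and Hadhb are neighbours on chromosome 5 and are read outward from the same DNA. In GRCm38.p6 Hadha lies at chr5:30119423-30154980 on the minus strand and Hadhb at chr5:30155253-30184593 on the plus strand, with 272 bases between their first bases. Their promoter windows share 228 bases. The 250 bases before Hadhb, chr5:30155003-30155252 on the plus strand, all lie between the 2 genes. They are shown because this stretch precedes both subunits, which rose together in the 3 comparisons above, and none of the motifs searched was found in them.
Hadhb: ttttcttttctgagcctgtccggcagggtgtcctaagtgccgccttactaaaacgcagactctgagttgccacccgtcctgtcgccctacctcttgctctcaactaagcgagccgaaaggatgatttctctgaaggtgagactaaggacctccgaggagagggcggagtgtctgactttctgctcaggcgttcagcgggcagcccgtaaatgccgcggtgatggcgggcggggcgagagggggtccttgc

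Etfdh, which hands the electrons of the first step to ubiquinone, rose with the dehydrogenases. It was at 9.42 and 9.21 in KO_RD against 8.45 and 8.44 in WT_RD, a difference of 0.87 ± 0.118. It was at 9.60 and 9.80 in KO_HFD against 8.00 and 8.34 in WT_HFD, 1.53 ± 0.118. With the antibody it was at 10.51 and 10.67 against 9.71 and 9.77 with IgG, 0.85 ± 0.118. These are changes of 1.82-fold, 2.89-fold and 1.8-fold, with no overlap between groups and a limma adjusted p of at most 2.6e-06. Of all 9 genes Etfdh had the highest correlation with the mean of the others over the 12 arrays, after the mean of each experiment was subtracted (r = 0.99). For Cpt1a the same correlation was -0.465, and for the remaining genes it was 0.801 or higher. The arrays are 6 pairs of replicates, so these values are descriptions.

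The start of Etfdh, at chr3:79603788-79628767 on the minus strand, is shown for a pair of overlapping matches. GCATGCGC occurs there on both strands within the capitals, in chr3:79628768-79629017.
Etfdh: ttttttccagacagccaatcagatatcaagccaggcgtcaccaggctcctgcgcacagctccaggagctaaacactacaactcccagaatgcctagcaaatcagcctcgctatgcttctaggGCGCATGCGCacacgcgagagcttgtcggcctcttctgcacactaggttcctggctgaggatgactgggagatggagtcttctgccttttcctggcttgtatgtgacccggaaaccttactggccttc

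RefSeq promoter windows of 300 bases (250 before and 50 after the start, GRCm38.p6) were found for 8 of the 10 listed genes. For Cpt1a the start used, chr19:3323301, lies inside the gene's span of chr19:3322326-3385735, so its window is within the gene. AGGTCA, the half-site of nuclear receptors, searched like the other motifs on both strands, was in 3 of the 8 (Cpt1a, Acadvl and Acadm) and in 16.3% of all 32851 windows of the table. GCATGCGC was in 2 of the 8 (Acadm and Etfdh) and in 2.7% of all windows. AGGTCA followed after 1 base by AGGTCA again, the form of a PPAR element, and AGGTCA preceded by TCA, the element of estrogen-related receptors, were in 0 of the 8, and in 0.04% and 0.423% of all windows. These are matches of letters in a short window, not binding sites.

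In Smad3-/- mice 4 of the 9 oxidation genes rose and 1 fell with high fat diet (median 0.28), where 11.5% of all genes rose and 5.82% fell. In wild type 0 rose and 2 fell (median -0.18), where 4.69% rose and 6.11% fell. After quantile normalization over all arrays the counts were 2 higher and 1 lower in the knockout (median 0.13). In wild type they were then 2 higher and 1 lower (median -0.07). With arrays centred on their medians the counts stayed at 4 higher and 1 lower in the knockout (median 0.32). In wild type they stayed at 0 higher and 2 lower (median -0.2). The contrast in counts was thus kept by centring and lost with quantile normalization. The knockout's risers were Cpt2 (10.93 and 11.04 in KO_HFD against 10.35 and 10.07 in KO_RD), Acadm, Acadl and Etfdh, by 0.77, 0.56, 0.52 and 0.39, and Cpt1a fell by 0.70 on the log2 scale, to 8.24 and 8.44 against 9.03 and 9.05. Acadl and Etfdh no longer passed without KO_RD replicate b (limma adjusted p = 0.0521 and 0.229) or KO_HFD replicate b (0.0792 and 0.264), and Acadvl, at 0.28 ± 0.105, did not pass with all arrays (limma adjusted p = 0.067) but did without KO_RD replicate a (0.0047) or with dim genes left out (0.0425). In wild type Hadha fell by 0.45 and Acadvl by 0.33 on the log2 scale, with limma adjusted p = 0.00417 and 0.0417. The Hadha call was lost without WT_HFD replicate a (limma adjusted p = 0.12), and the Acadvl call was lost when any of 10 of the 12 arrays was left out (0.0533 to 0.389). Etfdh, at -0.28 ± 0.118 in wild type, did not pass with all arrays (limma adjusted p = 0.166) but did without WT_HFD replicate b (0.0273). These comparisons share arrays with those of genotype.

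**Figure D3:**
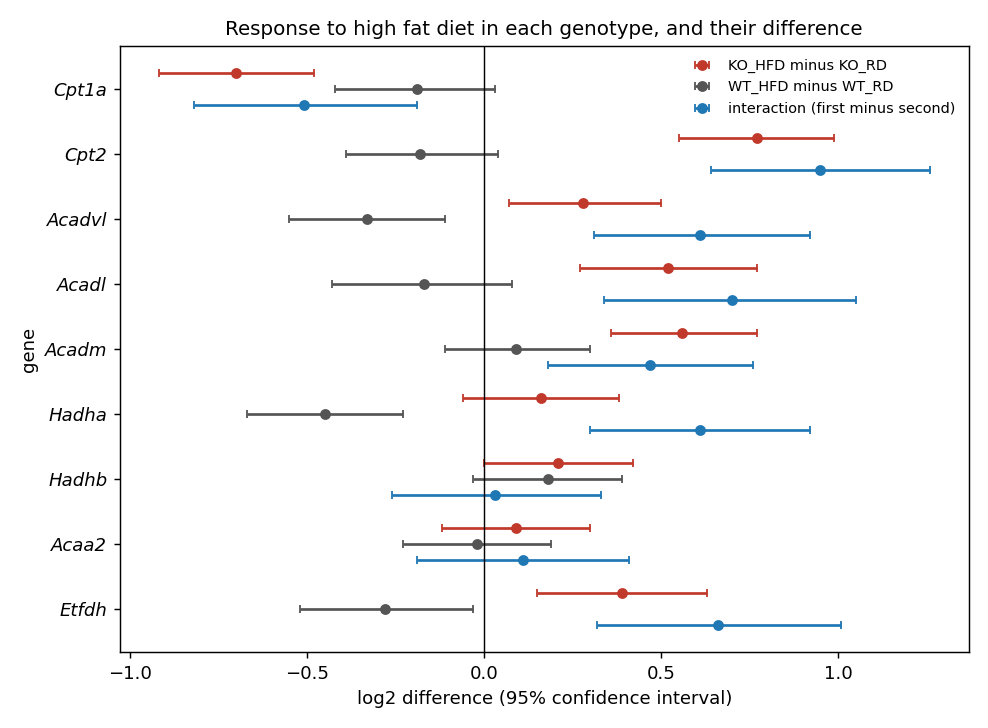
Log2 differences with 95% confidence intervals for KO_HFD minus KO_RD, WT_HFD minus WT_RD, and the interaction, which is the first minus the second. Cpt2 has the highest interaction, 0.95, Cpt1a is at -0.51, and the intervals of Hadhb and Acaa2 include 0.

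The interaction tests whether the genotype difference on high fat diet exceeds that on regular diet, which equals the diet response of the knockout minus that of wild type. It was positive and passed for 6 of 9 genes and negative for 1, Cpt1a, against 12.0% and 6.77% of all genes. Cpt2 led at 0.95 ± 0.150 (limma adjusted p = 1.97e-05), followed by Acadl at 0.70, Etfdh at 0.66, Hadha and Acadvl at 0.61 each and Acadm at 0.47 (SE 0.141 to 0.174, limma adjusted p at most 0.0168). For Hadhb and Acaa2 it was 0.03 and 0.11, with 95% intervals of -0.26 to 0.33 and -0.19 to 0.41. Cpt1a, at -0.51 ± 0.154 (limma adjusted p = 0.0178), did not pass without WT_RD replicate a, WT_HFD replicate a or KO_HFD replicate a (0.109, 0.0568 and 0.109), and Acadm did not pass without WT_RD replicate a, WT_HFD replicate a or KO_HFD replicate b (0.0792, 0.0589 and 0.0838). After quantile normalization over all arrays 3 genes passed with a positive interaction, and Acadl, Acadm and Hadha did not (0.31, 0.07 and 0.31). With the probe sets of a gene averaged, Acadl, Etfdh and Cpt1a did not pass (0.47, 0.42 and -0.46, limma adjusted p = 0.0733, 0.0646 and 0.0655). Within the 8 diet and genotype arrays, the mean level of 6 of these genes ran in the order WT_HFD, WT_RD, KO_RD, KO_HFD from low to high. For Acadl and Acaa2 the WT_HFD and WT_RD arrays overlapped, as did KO_RD and KO_HFD for Acaa2, and KO_RD and WT_RD for Cpt2. Hadhb and Acadm had WT_RD lowest, and for Acadm WT_HFD overlapped with both WT_RD and KO_RD, and Cpt1a had KO_HFD lowest and KO_RD highest.

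Further probe sets of the same genes gave the following check. For Acaa2, a pair of other bright probe sets rose by 1.63 and 1.12 on regular diet, 1.99 and 1.82 on high fat diet, and 1.42 and 1.41 with the antibody. They differed from the first in the interaction, at 0.35 ± 0.158 and 0.70 ± 0.169. The second of these passed (limma adjusted p = 0.00399), so that the Acaa2 probe sets disagree there. Both also passed as lower for diet in wild type (-0.36 and -0.51, limma adjusted p = 0.0452 and 0.00554), where the first is at -0.02. For Hadhb another bright probe set rose by 1.33 and 1.30 for genotype, while its antibody difference of 0.33 ± 0.136 did not pass (limma adjusted p = 0.0856). Cpt1a has 2 dim probe sets, with means of 4.83 and 4.11, which also fell with the antibody, by 0.67 and 1.12 on the log2 scale. The remaining ones, of Cpt2, Acadl, Hadhb and Etfdh, had means of 4.04 to 6.55 near or under the array medians and differences of -0.14 to 0.41.

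Other genes of mitochondrial beta-oxidation changed in part with these enzymes. Counts in each list are to be set against the shares over all genes, 8.40% higher and 15.6% lower in KO_RD, 4.74% and 6.05% in KO_HFD, and 11.7% and 12.6% with the antibody. Of 19 measured, 6 rose and 3 fell in KO_RD (median 0.20), 16 rose and 0 fell in KO_HFD (median 0.71), and 16 rose and 0 fell with the antibody (median 0.53). Slc25a20, the carrier that exchanges acylcarnitine across the inner membrane, rose by 1.21, 1.14 and 0.74 in the 3 comparisons. Eci1, an isomerase for unsaturated chains, rose by 0.95, 1.57 and 1.23. Hsd17b10, a hydroxyacyl-CoA dehydrogenase for short and branched chains, fell by 0.49 on the log2 scale in KO_RD, to a mean of 9.77 against 10.26 in WT_RD. It rose by 1.13 in KO_HFD and 0.75 with the antibody, and its interaction of 1.62 ± 0.164 was the strongest of the list by p (limma adjusted p = 1.13e-08).

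Among 17 genes of fatty acid uptake, activation and malonyl-CoA, 6 rose and 5 fell in KO_RD, 6 rose and 0 fell in KO_HFD, and 8 rose and 3 fell with the antibody (medians 0.15, 0.27 and 0.31). Fabp3, the fatty acid carrier of heart, muscle and brown fat, was higher by 4.16, 4.79 and 5.79, and Slc27a2, a fatty acid transporter and very long-chain acyl-CoA synthetase, by 2.61, 1.32 and 3.52. Both genes also belong to the brown adipocyte list. Cd36, a fatty acid uptake receptor, and Lipe, the hormone-sensitive lipase, fell by 1.28 and 0.94 on the log2 scale in KO_RD. Acacb, the acetyl-CoA carboxylase whose malonyl-CoA restrains Cpt1, rose by 1.14 in KO_HFD and 0.99 with the antibody. Its difference of 0.32 in KO_RD did not pass. Mlycd, which removes malonyl-CoA, rose by 0.29 in KO_RD, 0.37 in KO_HFD and 0.62 with the antibody. Of 14 regulators and PPAR targets, 4 rose and 2 fell in KO_RD, 5 rose and 1 fell in KO_HFD, and 7 rose and 1 fell with the antibody (medians 0.15, 0.15 and 0.38). Ppara, the receptor that switches on oxidation genes, was higher by 1.77, 1.41 and 2.36. Pdk4, which turns off pyruvate oxidation, was higher by 1.44 and 1.97 for genotype, whereas Pparg and Angptl4 fell by 1.82 and 1.48 on the log2 scale in KO_RD. The 2 of 14 lower in KO_RD and 1 of 14 lower in KO_HFD are near the shares over all genes. Peroxisomal beta-oxidation went less one way: of 14 genes 3 rose and 6 fell in KO_RD, 4 rose and 2 fell in KO_HFD, and 3 rose and 1 fell with the antibody (medians 0.02, 0.20 and 0.03). Abcd2, a peroxisomal transporter, fell by 1.74 on the log2 scale in KO_RD, and Ehhadh, the bifunctional enzyme, rose by 1.53 in KO_HFD and 0.67 with the antibody.

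Markers of other cell types moved with the same groups. In bulk RNA, more cells of a type and more RNA per cell cannot be told apart. Marker counts are to be set against the shares over all genes. These were 8.40% higher and 15.6% lower in KO_RD, 4.74% and 6.05% in KO_HFD, and 11.7% and 12.6% with the antibody. Brown adipocyte markers rose in 10 of 15 in KO_RD, 11 of 15 in KO_HFD and 14 of 15 with the antibody, with 0 lower in each. Their mean level per array was 8.32 to 8.44 in KO_RD against 6.28 in WT_RD, 8.24 to 8.29 in KO_HFD against 6.28 to 6.37 in WT_HFD, and 8.69 to 8.77 in ATGF against 6.22 in IgG. Ucp1, the uncoupling protein of brown fat, was at 12.44 and 12.32 in KO_RD against 6.40 and 6.44 in WT_RD. All 18 skeletal muscle markers rose in KO_HFD and with the antibody, with mean levels of 10.31 to 10.45 in KO_HFD against 5.91 to 6.05 in WT_HFD, and 10.73 to 10.76 in ATGF against 5.77 to 5.79 in IgG. In KO_RD 11 of the 18 rose and 4 fell, and the mean level was 6.76 to 6.80 against 6.44 to 6.56 in WT_RD. Ckm, the muscle creatine kinase, was at 8.24 and 8.09 in KO_RD against 9.18 and 8.93 in WT_RD, and Acta1, skeletal actin, at 8.32 and 8.58 against 11.02 and 10.76. Myh4, a fast myosin heavy chain, was at 6.12 and 6.12 in KO_RD against 3.65 and 3.50 in WT_RD. Ckm and Acta1 were thus among the 4 markers that fell in KO_RD, and Myh4 was among the 11 that rose. The difference of the muscle list between diets in the knockout was also high, with 18 of 18 higher in KO_HFD than in KO_RD and a median of 3.78. Over all genes 11.5% were higher in that comparison.

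Epididymis and testis markers rose in 10 of 11 in KO_RD, to a mean level of 10.21 to 10.23 against 5.64 to 5.70 in WT_RD. They fell in 6 of 11 in KO_HFD, to 6.69 to 6.92 against 7.85 to 7.92 in WT_HFD, and were at 4.88 to 4.89 in ATGF against 4.76 to 4.83 in IgG. White adipocyte markers fell in 11 of 12 in KO_RD (10.26 to 10.40 against 12.06 to 12.09 in WT_RD), with 2 higher and 4 lower in KO_HFD and 5 higher and 3 lower with the antibody. Over all genes 8.40% were higher and 15.6% lower in KO_RD, 4.74% and 6.05% in KO_HFD, and 11.7% and 12.6% with the antibody. Macrophage markers fell in 8 of 12 in KO_RD with 1 higher, in 7 of 12 in KO_HFD and in 11 of 12 with the antibody, where their mean level was 9.42 to 9.47 in ATGF against 11.04 to 11.10 in IgG. Hepatocyte markers fell in 7 of 7 with the antibody (5.86 against 7.94 to 8.04 in IgG), among them Alb, at 7.16 and 7.48 against 10.50 and 10.53. No marker list was at 0, since the array gives every probe set a value. Heart markers had 0 of 6 higher in any comparison, with Myh6 at 3.69 to 4.52. Over all genes 4.69% to 12.0% were higher in a comparison, so for 6 genes that count is near the share. With the antibody 1 heart marker passed as lower, Tnni3, at -0.46 (limma adjusted p = 0.0185). The part of these cell types in the differences of the oxidation enzymes was not tested.

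**Figure D4:**
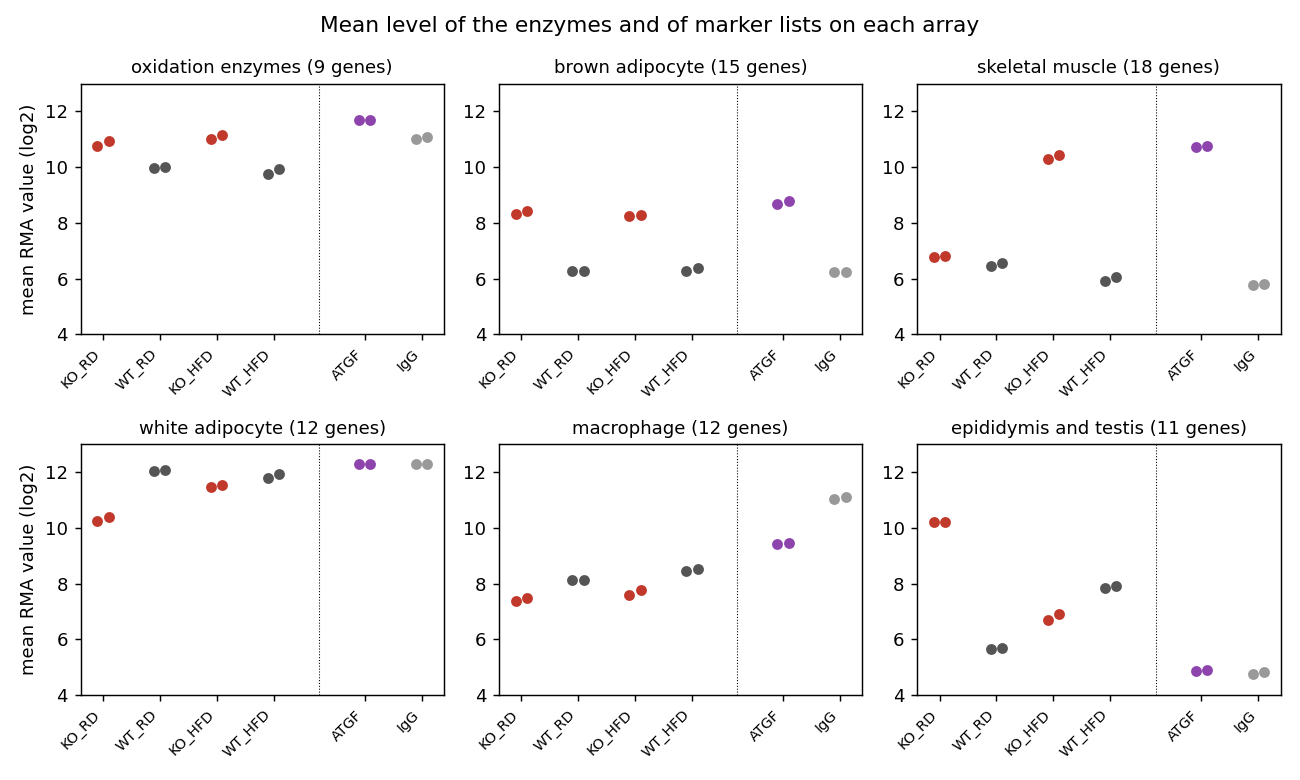
Mean RMA value (log2) of the 9 oxidation enzymes and of 5 marker lists on the lower and the higher array of each group. The enzymes and the brown adipocyte markers are higher in KO_RD, KO_HFD and ATGF than in the group to their right, whereas skeletal muscle markers reach 10.31 or more in KO_HFD and ATGF and 6.80 at most in KO_RD.

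The genes with profiles most like the mean of the 9 enzymes over the 12 arrays, by Pearson correlation after the mean of each experiment was subtracted, were Sucla2 and Mcrip2 (r = 0.988 each), Cox8b (0.977), Slc25a20 (0.972), Pdk4 (0.966), Adssl1 (0.964), Clstn3 and Coq8a (0.961 each). Sucla2 encodes a subunit of succinyl-CoA synthetase of the tricarboxylic acid cycle, and Cox8b a cytochrome oxidase subunit of muscle and brown fat. Coq8a takes part in the making of coenzyme Q. All 8 genes passed as higher for genotype on both diets and for the antibody. This largely follows from their selection by the enzymes' profile on the same arrays. Sucla2 differed by 0.98, 1.41 and 0.84, and Cox8b by 3.92, 3.76 and 2.13. With the 8 diet and genotype arrays alone, 5 of these 8 genes were again among the first 8.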

How the data were processed

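Values were the deposited log2 expression values of 12 Affymetrix arrays, which the authors made with RMA and Partek per the submitters' processing notes (versions not given in the sources used here), with 6 ug of RNA hybridised according to the labels' protocols. RMA includes quantile normalization, but array medians and SDs differ between the experiments. No per-sample column was left unused.

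Of 45101 probe sets, the platform annotation gave 34958 with 1 gene, 932 with several and 9211 with none. The probe set with the highest mean stood for each of 18194 genes, and 18033 matched GRCm38.p6 RefSeq by gene ID. No low values were filtered, and all 9 genes with a value were tested.

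Group means over all 12 arrays were fitted in R 4.3.3 with limma 3.58.1 (eBayes with intensity trend, 6 residual and 20.4 prior degrees of freedom, two-sided, Benjamini-Hochberg over all genes, threshold 0.05). The script was tested on simulated data. Genes named beyond the 9 included up to 4 of each pathway list with the smallest p in a comparison. The others were preset markers and the 8 most alike, and not all that the rule allows are named. Acads, named after its values were seen, falls outside this rule, as do Smad3 and the controls Gapdh and actin. Genes and lists were chosen with earlier results of these data known. A planned ratio of Cpt1b to Cpt1a was not computed, since Cpt1b has no probe set of its own. Alternatives are given in the closing section. The number of arrays limits the precision.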

Additional observations from a re-analysis of the deposited data

Results flagged for a closer look

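The genotype difference on high fat diet differed from that on regular diet, by the interaction test over all genes, for 7 of the 9 enzymes. The log2 interaction was 0.95 for Cpt2, 0.70 for Acadl, 0.66 for Etfdh, 0.61 for Hadha, 0.61 for Acadvl, 0.47 for Acadm and -0.51 for Cpt1a. Acadl, Acadm and Hadha did not pass after quantile normalization, nor did Acadl, Etfdh and Cpt1a with probe sets averaged. The calls of Cpt1a and Acadm also depended on single arrays, as given above. For Acaa2, not among the 7, another bright probe set passed at 0.70, and a further one at 0.35 did not. Over all genes 12.0% passed with a positive interaction and 6.77% with a negative one. Skeletal muscle markers had a positive interaction in 18 of 18, with a median of 3.82. White adipocyte markers had a positive one in 11 of 12 and a negative one in 0 (median 1.57). Brown adipocyte markers had a positive one in 2 of 15 and a negative one in 3 (median -0.16). Epididymis and testis markers had a negative one in 11 of 11, with a median of -6.07. The part of these marker lists in the 7 values was not tested.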

How the results depend on the processing

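In the diet comparison in wild type, 1 gene in place of 2 was lower with eBayes without a trend, averaged probe sets, quantile normalization applied again, only the arrays of the experiment, or every probe set on its own, and leaving out single arrays gave 0 to 2. Quantile normalization gave 2 genes higher there in place of 0, 2 higher in place of 4 for diet in the knockout, and 3 in place of 6 for the interaction; with that setting Acadm and Hadhb passed as higher in wild type, and Cpt1a, Cpt2 and Acadm as higher in KO_RD (0.45, 0.50 and 0.41). The mean of probe sets gave 0 in place of 1 lower for the interaction, where leaving out arrays gave 0 to 1. Leaving out arrays gave 2 to 5 higher for diet in the knockout, 6 to 7 for genotype on regular diet, 8 for genotype on high fat diet and 7 to 8 for the antibody. Acadm lost its antibody and interaction calls with eBayes without a trend (adjusted p = 0.0534 and 0.0564). Calls over all genes moved by over 1.5 times in 8 cases, among them 2438 higher in place of 1528 for genotype on regular diet with quantile normalization, and 543 or 558 in place of 863 higher in KO_HFD without KO_HFD replicate b or WT_HFD replicate a. The others were 649 or 648 in place of 1100 lower in KO_HFD without KO_HFD replicate a or WT_HFD replicate b, 691 or 720 in place of 1112 lower for diet in wild type without WT_HFD replicate a or WT_RD replicate a, and 1274 in place of 2091 higher for diet in the knockout without KO_HFD replicate b. With the replicate letter as a block (replicate block), all 9 enzymes kept their side of the threshold in each of the 6 comparisons, with 6, 8 and 8 higher for genotype on regular diet, on high fat diet and for the antibody. The a-minus-b deviations correlated between groups at -0.161 to 0.169, so the letters were not taken to pair the samples. The planned ratio of Cpt1b to Cpt1a was not run. No enzyme changed direction in a called difference under the alternatives run. The 2 arrays a group limit the precision, and dim probe sets may understate differences.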
